A study of Homo sapiens with 6 samples.

Results

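Drug efflux genes were followed in MDA-MB-231, an established cell line from a triple-negative mammary tumour. The set was chosen by gene symbol, as 8 transporters of the ATP-binding cassette (ABC) superfamily that carry anticancer drugs out of cells, together with MVP, the major vault protein. Of these 9 genes, 8 were found among the 25706 genes of the expression table: MVP, ABCC1, ABCC2, ABCC3, ABCC4, ABCC5, ABCC10 and ABCG2. ABCB1 was not analysed here. Poly(A)-selected RNA had been sequenced from 3 libraries of cells in which the tRNA-derived small RNA tsRNA-Gly-5-0006 was overexpressed and from 3 libraries of cells labelled control. The labels give neither the construct, nor what the control cells carry, nor whether replicates were separate cultures, so the p-values below measure the spread between these samples, which may be technical. All libraries come from 1 cell line, and levels are of messenger RNA, not of protein or of transport.

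ABC transporters use the energy of ATP to move substrates across a membrane, and those in this set act at the plasma membrane or on internal vesicles. The ABCC genes encode multidrug resistance-associated proteins, most of which export organic anions, among them conjugates of glutathione, glucuronate or sulfate. ABCG2, the breast cancer resistance protein, is a half-transporter that works as a multimer and was first described in a drug-resistant breast cancer line. MVP is no transporter: it forms the shell of the vault, a large cytoplasmic ribonucleoprotein particle, and has been called the lung resistance-related protein because it is abundant in many drug-resistant cells.

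The promoters of the gene with the highest level in these cells, MVP, and of the gene with the lowest, ABCC2, are printed. Levels are per gene and do not show which start the RNA came from. RefSeq gave 3 promoters for MVP and 1 for ABCC2. The promoter nearest the gene's start in the expression table is shown for each. Each runs from 250 bases before to 50 bases after a RefSeq transcript start in GRCh38.p14, 5′ to 3′ on the gene's strand, at chr16:29820144-29820443 for MVP and chr10:99782390-99782689 for ABCC2, both on the plus strand. Both starts equal the gene's start in the expression table. Capitals mark matches on either strand to a CCAAT box (CCAAT or ATTGG) or a TATA box (TATAAA or TTTATA); the GC box (GGGCGG or CCGCCC) was also searched and had no match in either.
MVP: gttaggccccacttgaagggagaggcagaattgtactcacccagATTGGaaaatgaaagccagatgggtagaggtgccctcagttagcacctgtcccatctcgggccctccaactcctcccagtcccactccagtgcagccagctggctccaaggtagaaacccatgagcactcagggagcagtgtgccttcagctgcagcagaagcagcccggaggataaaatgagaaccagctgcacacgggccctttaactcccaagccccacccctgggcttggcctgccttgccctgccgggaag
ABCC2: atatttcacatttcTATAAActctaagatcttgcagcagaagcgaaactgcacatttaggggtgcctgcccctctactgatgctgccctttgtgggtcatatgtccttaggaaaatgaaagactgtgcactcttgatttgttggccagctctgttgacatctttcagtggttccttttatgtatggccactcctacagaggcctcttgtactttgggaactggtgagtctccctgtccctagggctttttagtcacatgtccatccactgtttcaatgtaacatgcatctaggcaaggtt
The MVP window had a GC content of 59.0% and 4 CpG dinucleotides, with 1 CCAAT box match that begins 206 bases before the start and overlaps no other match. The ABCC2 window had a GC content of 45% and 1 CpG dinucleotide, with 1 TATA box match that begins 236 bases before the start. Over all 35116 RefSeq promoters of this length the median was 58.7% GC and 14 CpG dinucleotides. A GC box was found in 44.95% of these, a CCAAT box in 34.6% and a TATA box in 11.5%. Promoters were available for 6 of the 8 genes. The window of ABCC4 had 79.7% GC, 47 CpG dinucleotides and none of the 3 motifs. That of ABCC5 had 65.7% GC, a GC box and a TATA box match that begins 28 bases before its start, which lies 55 bases from the gene's start in the table. ABCC10, whose RefSeq start lies 175 bases from that in the table, had 54.3% GC. Its TATA box match begins 149 bases before the RefSeq start. The ABCG2 window had 40.3% GC and no match. RefSeq gave 2 promoters for ABCC10 and 5 for ABCG2, and only the one nearest the gene's start in the table was searched. A match is a run of letters and does not show that a factor binds.

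Deposited counts summed to between 58870830 and 73126731 in overexpressing libraries and to between 54371226 and 74586916 in control libraries. Markers of the line were at high level, with mean values of 420 FPKM for vimentin (VIM), 48.4 for AXL and 40.9 for CD44, while EGFR, which this line is known for, stood at 0.731. FPKM are here the deposited counts scaled by gene length and by library depth. Of the hormone receptor and HER2 genes, PGR was at 0.000576 FPKM and ERBB2 at 5.70 FPKM. Epithelial genes were mixed, with CDH1 at 0.0241 and EPCAM at 0.211 FPKM but the keratins KRT8, KRT18 and KRT19 at 585, 507 and 2143 FPKM. Of the leukocyte and endothelial genes PTPRC was at 0.000915 FPKM, while CD14 and CD68 stood at 14.7 and 15.0 FPKM. Of 13 fibroblast markers 12 were in the table, none of them at 0 in all libraries, and their counts summed to 147, 10.1 and 7.59 CPM, which are counts scaled by library depth alone, in overexpression 1, 2 and 3, against 9.73 to 12.03 CPM in controls. Among them COL3A1 and DCN were at 0 in every library but overexpression 1. The 6 basal and myoepithelial markers summed to 61.55, 29.3 and 24.05 CPM in overexpression 1, 2 and 3, against 21.2 to 23.9 CPM in controls. They did not rise together. In overexpression 1 KRT14 was at 1.58 and MYLK at 1.36 FPKM, each far above the other libraries, and ACTA2 at 0.622, just above control 1 at 0.595. KRT17 at 2.12 and KRT5 at 0.0109 FPKM lay within the range of the others, and TP63 was at 0. Because overexpression 1 stands apart in this way, the fold changes of the tested members and of the genes named from lists are given with and without it. In bulk RNA, fewer cells that express a gene and less RNA per cell cannot be told apart.

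MVP was by far the most abundant gene of the set. It had 103, 104 and 100.01 FPKM in overexpressing libraries 1, 2 and 3, against 101, 95.04 and 92.7 FPKM in control libraries 1, 2 and 3. The mean was 102 ± 2.11 FPKM in overexpressing and 96.1 ± 4.11 FPKM in control cells (SD, n = 3 each). In FPKM the groups overlapped, since control 1 lay above overexpression 3. The order within the groups depended on the scaling. In CPM scaled by TMM, as in the test below, overexpression 3 was the highest at 715. Control 1 at 684 then lay above overexpression 1 and 2, at 655 and 651. Over all 6 libraries the mean was 99.2 FPKM, above that of 97.8% of genes in the table. MVP (ENSG00000013364) lies at chr16:29820394-29848039 in hg38. On the same strand it overlaps PAGR1 over 2096 bases. PAGR1 had 1689 to 3342 counts where MVP had 36599 to 49729. A row without a symbol, ENSG00000281348, also overlaps it on that strand with 0 to 18 counts, and the divergent transcript MVP-DT on the other strand with 32 to 102 counts.

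**Figure D1:**
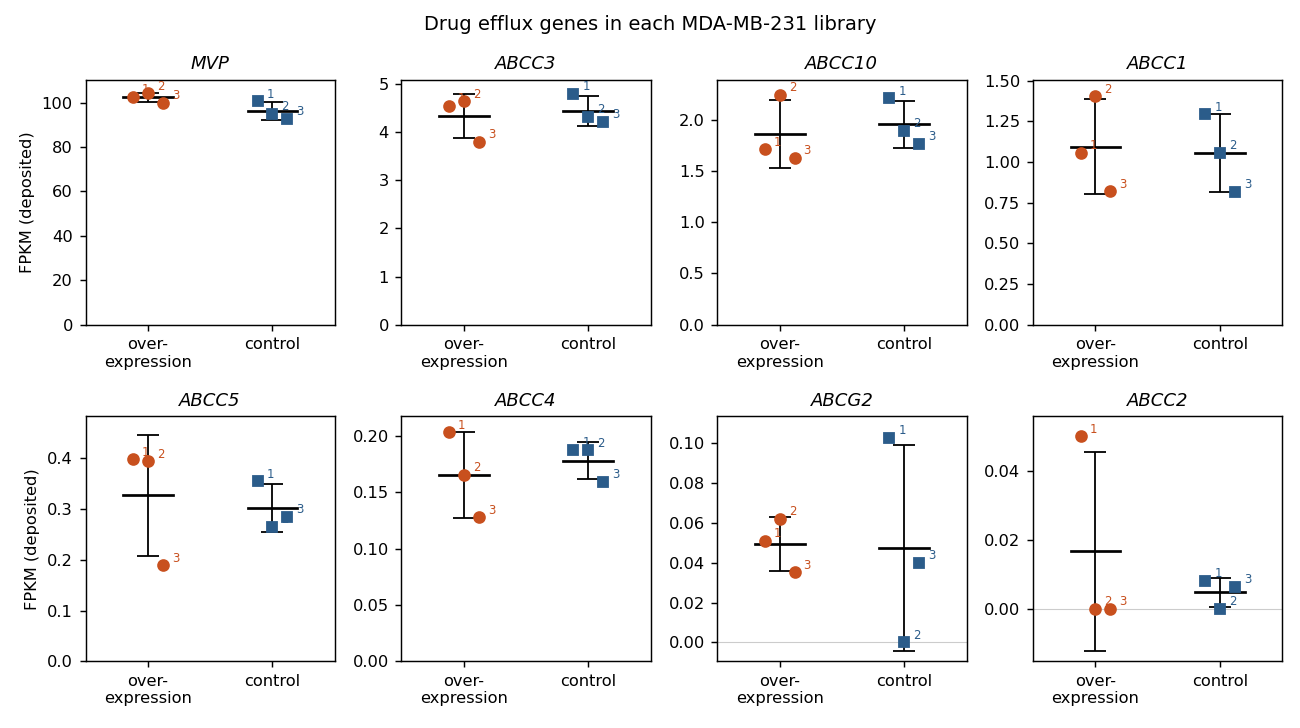
Deposited FPKM of MVP and 7 ABC transporter genes in each library (numbered points), with overexpressing cells left of control cells; bars are means and whiskers SDs of 3 libraries, and each panel has its own linear axis. The groups overlap in all 8 panels, and ABCC2 is above 0.01 FPKM in overexpression 1 only.

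ABCC3, ABCC10 and ABCC1 were the multidrug resistance-associated proteins with a mean of at least 1 FPKM. ABCC3, an exporter of bile acids and glucuronides at the basolateral membrane of liver and gut cells, had 4.55, 4.64 and 3.80 FPKM in overexpressing libraries, against 4.80, 4.32 and 4.21 FPKM in controls. Overexpression 3 was the lowest and control 1 the highest, and the other 4 lay between. The gene (ENSG00000108846, chr17:50634777-50692253) averaged 4.33 ± 0.464 FPKM in overexpressing and 4.44 ± 0.310 FPKM in control cells (SD, n = 3 each).

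ABCC10, also called multidrug resistance protein 7, confers resistance to taxanes in transfected cells. It had 1.71, 2.24 and 1.63 FPKM in overexpressing libraries, against 2.21, 1.895 and 1.76 FPKM in controls (ENSG00000124574, chr6:43427366-43450427). Overexpression 2 and control 1 were the highest of the 6, and overexpression 1 and 3 the lowest. Means were 1.86 ± 0.332 FPKM in overexpressing and 1.96 ± 0.229 FPKM in control cells (SD, n = 3 each). ABCC10 overlaps DLK2 on the other strand by 76 bases, and DLK2 had 332 to 610 counts where ABCC10 had 1027 to 1166; the counting strand is not given in the sources used here.

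ABCC1, the founding member of the family and an exporter of glutathione conjugates and anthracyclines, had 1.06, 1.40 and 0.821 FPKM in overexpressing libraries, against 1.29, 1.06 and 0.816 FPKM in controls (ENSG00000103222, chr16:15949138-16143257). The groups spanned nearly the same range. Means were 1.09 ± 0.293 FPKM in overexpressing and 1.06 ± 0.239 FPKM in control cells (SD, n = 3 each).

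ABCC5 and ABCC4, both exporters of cyclic nucleotides and nucleotide analogues, were well under 1 FPKM. ABCC5 (ENSG00000114770, chr3:183919934-184017939, minus strand) had 0.398, 0.394 and 0.189 FPKM in overexpressing libraries, against 0.355, 0.265 and 0.285 FPKM in controls. Overexpression 1 and 2 were the highest of the 6 and overexpression 3 the lowest. Means were 0.327 ± 0.120 FPKM in overexpressing and 0.301 ± 0.0473 FPKM in control cells (SD, n = 3 each). ABCC4 (ENSG00000125257, chr13:95019835-95301451, minus strand) had 0.203, 0.165 and 0.128 FPKM in overexpressing libraries, against 0.188, 0.187 and 0.159 FPKM in controls. Both the highest and the lowest of its values were in overexpressing cells. Means were 0.165 ± 0.0378 FPKM in overexpressing and 0.178 ± 0.0163 FPKM in control cells (SD, n = 3 each).

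ABCG2 and ABCC2 were at trace level. ABCG2 (ENSG00000118777, chr4:88090150-88231628, minus strand) had 23, 23 and 16 deposited counts in overexpressing libraries, against 36, 0 and 20 counts in controls. As FPKM these were 0.0510, 0.0620 and 0.0352 in overexpressing libraries, against 0.103, 0 and 0.0401 in controls. The controls thus spread wider than the difference between the groups, from none in control 2 to the highest value in control 1. ABCC2 (ENSG00000023839, chr10:99782640-99852044), the exporter of bilirubin glucuronides at the bile canaliculus, had 31, 0 and 0 counts in overexpressing libraries, against 4, 0 and 5 counts in controls. Its value in overexpression 1, 0.0501 FPKM, was above all others, and the other overexpressing libraries were at 0. In the same library the fibroblast markers were high, as given above; their part in the ABCC2 value was not tested. ABCC2 did not pass the filter on low counts, so it is not among the 7 genes tested below. In the 2 alternatives with no filter it did not pass either, with an adjusted p of 0.937 in edgeR and of 0.916 in limma on log2(FPKM + 0.1), and its group means carry no fold change.

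By mean FPKM over the 6 libraries the order was MVP, ABCC3, ABCC10, ABCC1, ABCC5, ABCC4, ABCG2 and ABCC2. MVP stood 22.6 times above ABCC3, and ABCC3 2.30 times above ABCC10. The ranges over 6 libraries overlapped for 2 pairs of neighbours, ABCC5 with ABCC4 and ABCG2 with ABCC2, and did not overlap for the other neighbours. The order was the same in the 3 control libraries alone and without overexpression 1. For most genes the deposited FPKM fitted a division by the length of all exons joined, which is 6141 bases for MVP where its longest transcript in GENCODE 29 has 2925. Counts per kilobase of that longest transcript kept the order of all 8 genes, an alternative chosen after seeing the data, and gave 226 CPM per kilobase for MVP and 8.04 for ABCC3.

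Levels in these libraries also went with the GC content of the transcript over the whole table. The median of the mean FPKM over protein-coding genes was 0.340 for 4527 genes under 45% GC in the longest transcript, 0.717 from 45% to under 50%, 1.16 from 50% to under 55%, 2.41 from 55% to under 60%, and 3.20 for 2000 genes at 60% or more. Of the set, MVP had 61.2% GC, ABCC10 58.8%, ABCC3 55.8%, ABCC1 54.9%, ABCC5 50.8%, ABCC2 44.9%, ABCC4 43.2% and ABCG2 41.2%. The 3 genes under 45% GC are the 3 lowest in level. Levels went with transcript length as well. The median was 2.59 FPKM under 2000 bases, 1.39 from 2000 to under 4000 and 0.596 from 4000 to under 6000. It was 0.326 from 6000 to under 8000 bases and 0.145 at 8000 or more. The longest transcript has 2925 bases for MVP, and 4479 (ABCG2) to 6594 (ABCC1) for the others. How much of the order comes from GC content or from length was not tested.

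**Figure D2:**
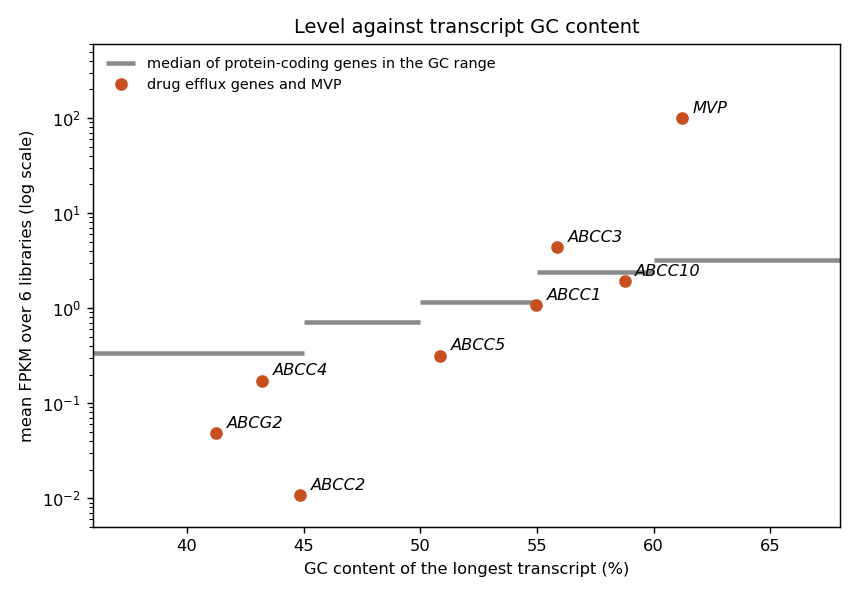
Mean FPKM over 6 libraries (log axis) against GC content of the longest GENCODE 29 transcript for MVP and 7 ABC transporter genes (points); grey bars are the medians of protein-coding genes in ranges of GC content, from 0.340 to 3.20 FPKM. MVP and ABCC3 lie above the median of their range and the other 6 below it.

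The comparison of overexpressing with control cells asks whether the small RNA went with a change in the efflux genes. None of the 7 genes tested passed edgeR's quasi-likelihood test with Benjamini-Hochberg adjustment over 15951 genes, where 0% of all genes passed at an adjusted p under 0.05. At an unadjusted p under 0.05 the count was 0 of 7, beside 3.83% of all tested genes (2.56% higher and 1.27% lower). DESeq2, which called 12 genes of the whole table (0.0759%, and 4.21% at an unadjusted p under 0.05), also gave 0 members at either level. Limma on log2(FPKM + 1) and log2(FPKM + 0.1) covered only the 4 members with a mean of at least 1 FPKM. It gave 0 of 4 at either level, beside 194 and 200 of all covered genes at an unadjusted p under 0.05. With no filter, limma on log2(FPKM + 0.1) gave 0 of 8 members, beside 758 genes at that level. The numbers of genes that limma covered are not given here, so these background counts carry no share. At an adjusted p under 0.05 limma called 0 genes of the whole table in each of these settings. In FPKM the groups overlapped for all 8 genes, where 8.22% of tested genes had groups that did not overlap, and so did the 7 tested genes in TMM-scaled CPM, where 9.02% did not. Of the 7 fold changes 2 were positive and 5 negative, with a median log2 of -0.06, where the median of all tested genes was 0.02.

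Intervals show which sizes of change the data still allow. For MVP the log2 fold change (overexpression over control) was 0.05, with a 95% confidence interval of -0.16 to 0.26 (unadjusted p 0.612, adjusted p 0.9998 with edgeR), which is 0.894- to 1.19-fold. For ABCC3 it was -0.09, with an interval of -0.31 to 0.14 (unadjusted p 0.396, the smallest of the 7). These were the narrowest intervals of the set, and the median half-width over all tested genes was 0.53. ABCC10 had -0.12 (-0.47 to 0.23), ABCC1 -0.0015 (-0.53 to 0.52), ABCC5 0.05 (-0.61 to 0.71) and ABCC4 -0.15 (-0.66 to 0.37). For ABCG2 the value of -0.06 (SE 1.07) had an interval of -2.56 to 2.44, which is 0.170- to 5.44-fold, so its groups could not be compared. Without control 2, its only library at 0 counts, the value was -0.64 (SE 0.58). All 7 had an adjusted p of 0.9998.

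Without overexpression 1, 0 of 7 genes passed at either level with edgeR, beside 0.0247% of genes at the adjusted and 2.89% at the unadjusted level. MVP then had a log2 fold change of 0.06, ABCC3 of -0.11, ABCC10 of -0.05 and ABCG2 of -0.06. ABCC5 had -0.10 in place of 0.05, ABCC1 0.03, and ABCC4 -0.29 with an interval of -0.86 to 0.28. The mean over overexpression 2 and 3 was 102 FPKM for MVP, 4.22 for ABCC3, 1.94 for ABCC10 and 1.11 for ABCC1. For ABCC5 it was 0.291 FPKM, for ABCC4 0.146, for ABCG2 0.0486 and for ABCC2 0. The sign of ABCC1, ABCC5 and ABCG2 changed with the library left out or the method, so no direction is given for them. MVP was positive, and ABCC3, ABCC10 and ABCC4 were negative, in every alternative run, none of them past the test. Their size depended on single libraries. With 1 library left out, MVP lay between 0.0021 (without overexpression 3) and 0.08 (without control 1). ABCC3 lay between -0.12 (without control 2) and -0.03 (without control 1). ABCC10 lay between -0.23 (without overexpression 2) and -0.02 (without control 1), and ABCC4 between -0.29 (without overexpression 1) and -0.04 (without overexpression 3).

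**Figure D3:**
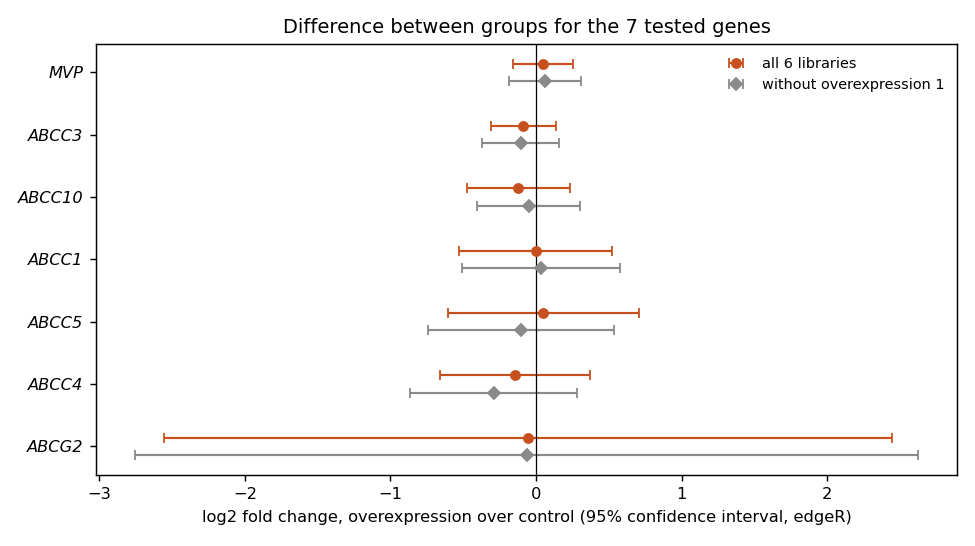
Log2 fold change of overexpression over control with its 95% confidence interval from edgeR for the 7 tested genes, with all 6 libraries (circles) and without overexpression 1 (diamonds). All 14 intervals include 0; those of MVP and ABCC3 are the narrowest and those of ABCG2 the widest.

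The rest of the ABC superfamily set the levels in context. With the 31 other superfamily genes analysed, out of 40 listed, there were 38 ABC genes, of which 19 had a mean of at least 1 FPKM. ABCC3 ranked at 9 among them, ABCC10 at 13, ABCC1 at 19, ABCC5 at 23, ABCC4 at 24, ABCG2 at 27 and ABCC2 at 30. The most abundant were no drug exporters: TAP1 at 37.3 FPKM, which with TAP2 carries peptides to MHC class I, and ABCF3, ABCF1 and ABCF2 at 32.0, 26.6 and 19.0 FPKM, which lack membrane domains and act in translation.

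**Figure D4:**
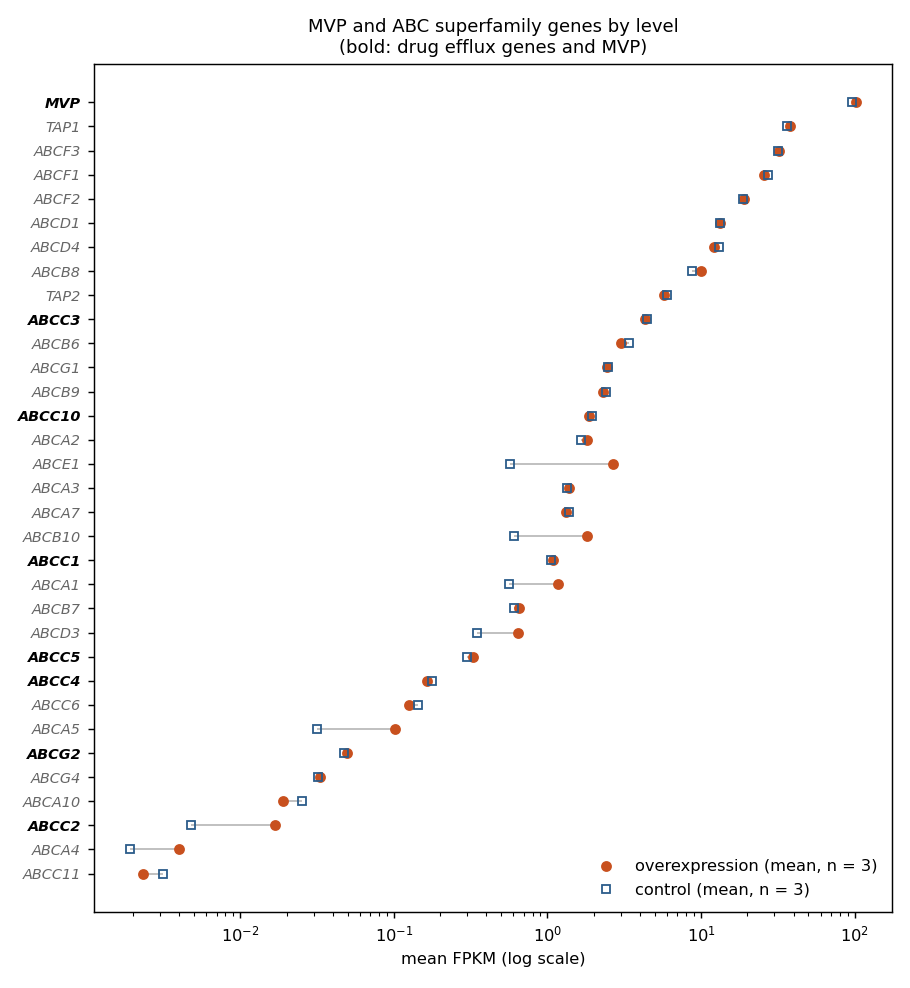
Mean FPKM (log axis) in overexpressing (filled circles) and control cells (open squares, n = 3 each) of MVP and the ABC superfamily genes with a mean above 0 in both groups, from highest to lowest; drug efflux genes and MVP are in bold. ABCE1, ABCB10, ABCA1, ABCD3 and ABCA5 have the widest gaps between groups among genes above 0.02 FPKM.

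Of the other superfamily genes 23 were tested, and 0 passed with edgeR or DESeq2. With edgeR 1 of 23 had an unadjusted p under 0.05, beside 3.83% of all genes, and 10 were positive and 13 negative, with a median log2 of -0.01. ABCE1, a factor that recycles ribosomes, had 6.5, 0.829 and 0.706 FPKM in overexpressing libraries, against 0.518, 0.676 and 0.519 FPKM in controls. Its groups did not overlap in FPKM, as in 2 of the 23 genes, beside 8.22% of all tested genes, and overexpression 1 was far above the rest. With edgeR its log2 fold change came to 2.15 (SE 0.81; unadjusted p 0.0320, adjusted p 0.994), and to 0.40 without overexpression 1. ABCB10, a mitochondrial transporter, had 1.51 (SE 0.74), or -0.0032 without that library, and ABCA1, the cholesterol exporter that lipidates apolipoprotein A-I, 0.98 (SE 0.55), or -0.03. In overexpression 1 the median of protein-coding genes under 45% GC was 0.478 FPKM, against 0.333 and 0.253 in overexpression 2 and 3 and 0.252 to 0.299 in controls. The part of GC content in these 3 values was not tested beyond a GC offset per library, with which they were 1.71, 1.40 and 0.88.

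**Figure D5:**
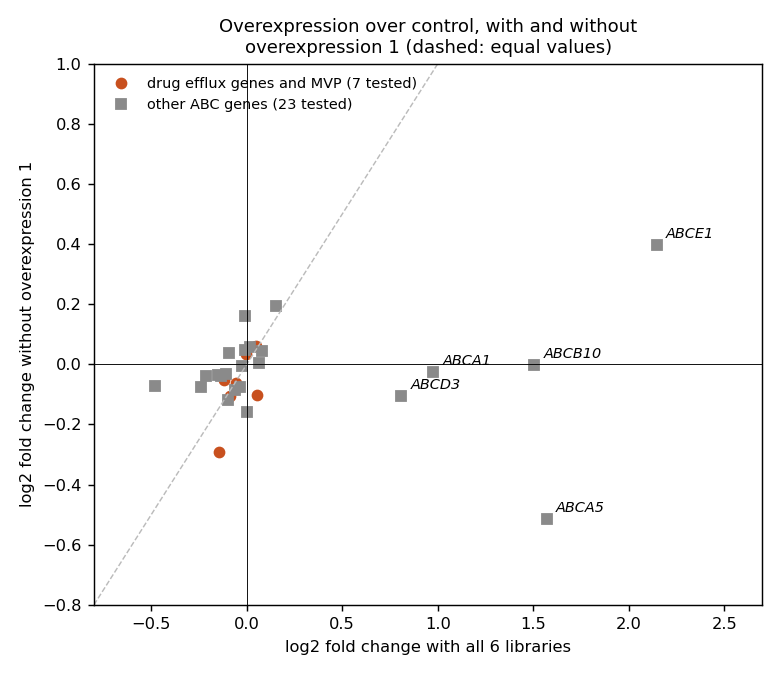
Log2 fold change of overexpression over control with all 6 libraries (x axis) and without overexpression 1 (y axis) for the 7 tested genes of the set, MVP included (circles), and 23 other ABC genes (squares); the dashed line marks equal values. ABCE1, ABCB10, ABCA5, ABCA1 and ABCD3 lie far right of the line, and the 7 genes of the set lie near the origin.

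Genes that work with the efflux pumps were taken from lists chosen with earlier results of these data known, and none passed the test in either direction with edgeR or DESeq2. Among transcriptional regulators of efflux genes 23 were tested, 13 positive and 10 negative, with a median log2 of 0.05, or 0.01 without overexpression 1. For HIF1A, the oxygen-regulated factor, which 2 unnamed rows overlap on its strand, the log2 value was 1.28 (SE 0.58), and 0.16 once overexpression 1 was left out. The glucocorticoid receptor NR3C1 gave 0.69 (SE 0.32) and 0.24 in the same 2 fits, and SP1, which binds GC boxes, 0.42 (SE 0.27) and 0.30. With edgeR 0 of 23 had an unadjusted p under 0.05, beside 3.83% of all genes. With DESeq2 1 of 23 did, NR3C1 (unadjusted p 0.0382, adjusted p 1), beside 4.21% of all genes.

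Glutathione synthesis and drug metabolism, which make the conjugates that ABCC proteins export, had 29 genes tested, 11 positive and 18 negative, with a median log2 of -0.08. Leaving out 1 library moved this median between -0.10 without control 3 and -0.01 without control 1; it was -0.06 without overexpression 1 and -0.03 without overexpression 2. None had an unadjusted p under 0.05 with edgeR or DESeq2, beside 3.83% and 4.21% of all genes. CYP1A1, an aryl hydrocarbon receptor target, averaged 0.279 ± 0.0692 FPKM in overexpressing and 0.171 ± 0.0462 FPKM in control cells (SD, n = 3 each). Its groups did not overlap in FPKM, the 1 such gene of 29, beside 8.22% of all tested genes. The edgeR log2 value of CYP1A1 was 0.67 (SE 0.34) at an adjusted p of 0.994, and 0.77 without overexpression 1. GCLM, the modifier subunit of the enzyme that limits glutathione synthesis, had 0.24 (SE 0.14). It had 0.08 without overexpression 1, and -0.04 with a GC offset per library. CYP1B1, which RMDN2-AS1 overlaps on its strand, had 0.63 (SE 0.40), or 0.00078 without overexpression 1.

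Proteins that anchor or move efflux pumps at the membrane had 12 genes tested, 8 positive and 4 negative. Their median log2 was 0.13 with all libraries and -0.07 without overexpression 1. RDX, radixin, which tethers ABCC2 to the canalicular membrane in mouse liver, had 3.31, 1.86 and 1.11 FPKM in overexpressing libraries, against 0.964, 1.34 and 1.02 FPKM in controls. Only overexpression 1 and 2 lay above all controls. TFAMP2 and an unnamed row overlap RDX on its strand. The log2 value of RDX, 0.85 (SE 0.34, unadjusted p 0.0398 and adjusted p 0.994 with edgeR), was the 1 of 12 with an unadjusted p under 0.05. This stands beside 3.83% of all genes, and the value was 0.38 without overexpression 1. RAB5A, of early endosomes, which an unnamed row overlaps on its strand, came to 1.07 (SE 0.62), or -0.18 without that library. EZR, ezrin, had 139, 192 and 161 FPKM in overexpressing libraries, against 180, 190 and 179 FPKM in controls, and its log2 value was -0.20 (SE 0.13), or -0.08 without overexpression 1.

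Of the partners of MVP in the vault, PARP4 and TEP1 were tested; the 4 vault RNA genes, whose transcripts carry no poly(A) tail, did not pass the filter. PARP4, the vault poly(ADP-ribose) polymerase, had 2.7, 3.45 and 1.58 FPKM in overexpressing libraries, against 2.03, 2.32 and 1.73 FPKM in controls, and its log2 value was 0.28 (SE 0.24). TEP1, which vaults share with telomerase, averaged 0.186 ± 0.0356 FPKM in overexpressing and 0.210 ± 0.0297 FPKM in control cells (SD, n = 3 each), and its log2 value was -0.23 (SE 0.22). The groups overlapped for both genes. Without overexpression 1 the log2 values were 0.26 for PARP4 and -0.16 for TEP1.

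Other exporters and the uptake side of drug transport gave the same count of 0 passed. Of 5 other exporters 3 were positive, and the copper pumps ATP7A and ATP7B, which carry platinum drugs, averaged 0.0208 and 0.0168 FPKM in overexpressing cells, against 0.00914 and 0.0217 FPKM in controls. ATP7A overlaps PGK1 on its strand, and its value is uncertain for that reason. Their log2 values were 1.17 (SE 0.56) and -0.40 (SE 0.44), and 0.43 and -0.33 without overexpression 1. SLC47A1, an exporter of organic cations, which RPL17P43 overlaps on its strand, had 0.14 (SE 0.22), or 0.06 without overexpression 1. Of 13 uptake genes 7 were positive. SLC7A11, the cystine importer, had 0.35 (SE 0.19), with 0.23 without overexpression 1 and 0.03 with a GC offset. SLCO3A1 had 0.32 (SE 0.21), or 0.08 without overexpression 1, and SLC31A1, the copper importer that also takes up cisplatin, 0.18 (SE 0.16), or 0.0012.

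Among 8027 other tested genes with a mean of at least 1 FPKM, those whose log2 CPM followed the 3 most abundant members most closely were named by the root mean square difference over the 6 libraries after each gene was centred on its own mean. Nearest to MVP were APBB1 at 0.012, NHERF1 at 0.013 and PEX6 at 0.018, where MVP itself varied by 0.062. Nearest to ABCC3 were PITPNA, RBM23 and QARS1, at 0.015, 0.017 and 0.028, where ABCC3 varied by 0.079. Nearest to ABCC10 were GAS8, CLU and ABTB2, at 0.025, 0.037 and 0.039, where ABCC10 varied by 0.15. These are the closest of 8027 genes over only 6 libraries, and MVP itself was nearly flat. Closeness here does not show shared regulation, which was not tested.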

How the data were processed

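The authors deposited 1 table with whole-number expected counts and FPKM values per gene for 6 libraries. Per the submitters' processing notes, cutadapt 1.9, HISAT2 2.0.4, StringTie 1.3.4d, edgeR and the build hg38 were used; annotation release and strandedness are not given in the sources used here. The FPKM deposited by the authors equal counts over a fixed length per gene (median coefficient of variation of the ratio between libraries 0.0161%, 4802 genes). That length matched the joined exons of GENCODE 29 within 5% for 73.8% of genes, and the longest transcript for 10.8%. Low counts pile up at multiples of 4, so counts were not taken as tallies of fragments and no counting intervals are given.

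All genes were tested with edgeR 4.0.16 (R 4.3.3, quasi-likelihood, TMM scaling, filterByExpr with minimum count 10, group as the only term, 2-sided), adjusted by Benjamini-Hochberg over 15951 genes at a threshold of 0.05. Standard errors and 95% intervals come from this fit, and means and SDs from FPKM. Alternatives used DESeq2 1.42.0, limma 3.58.1 on log2(FPKM + 1) and log2(FPKM + 0.1), other scalings and filters, counts divided by 4, a replicate block and each library left out. The procedure was tested on simulated counts with no outlying library, which do not give the power to find changes in these data. Members and lists were chosen with earlier results of these data known. Named from each list are the 3 genes with the smallest p. The TAP and ABCF genes, ABCA5 and ABCD3 were named after their values were seen. No per-sample columns were left over and no 2 libraries held identical counts. Promoters are from RefSeq (GRCh38.p14), the one nearest the gene's start in the table. GC content was available for 96.2% of tested genes.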

Additional observations from a re-analysis of the deposited data

How the results depend on the processing

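No efflux gene passed under any alternative with edgeR, DESeq2 or limma, and 93 alternative values kept the sign of the log2 fold change and 20 did not. The number of all genes called was 0, but 12 with DESeq2, and 0 to 4 when a library was left out. ABCC1 (-0.0015) was 0.030 with a GC offset, 0.032 with the offset and the replicate block, 0.040 with limma on log2(FPKM + 0.1) with or without the filter, 0.025 with limma on log2(FPKM + 1), 0.0051 with no filter, 0.00080 with the replicate block, and -0.17 to 0.17 with a library left out. ABCC5 (0.05) was -0.00059 with upper-quartile scaling and -0.10 to 0.29 with a library left out. ABCG2 (-0.06) was 0.38 with the offset and the replicate block, 0.032 with counts divided by 4, 0.073 with limma on log2(FPKM + 0.1) and no filter, 0.53 with the replicate block and -0.64 to 1.09 with a library left out. Among list genes, values with a library left out ranged from -0.0032 to 1.94 for ABCB10, -0.025 to 1.35 for ABCA1 and -0.18 to 1.47 for RAB5A, and GCLM was -0.041 with a GC offset, alone or with the block. With a library left out the median of each list except glutathione and drug metabolism took both signs, for example -0.07 to 0.19 for anchoring and traffic and -0.01 to 0.11 for uptake. The cause of these changes was not tested.

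The labels do not say whether the replicate numbers pair the samples. Deviations of same-numbered libraries correlated across genes at -0.0316, 0.0354 and 0.0746. Overexpression 1 correlated best with control 2 (0.0563), and overexpression 2 and 3 with the control of their own number. With 3 libraries per group such weak values cannot decide whether the samples are paired. The replicate block called 0 genes, with 438 in place of 611 at an unadjusted p under 0.05. ABCG2 and ABCC2 rest on few counts, at most 36 and 31 in a library, and limma with a mean of at least 1 FPKM covered 4 of the 8 genes. The GC offsets and the order by longest transcript were chosen after seeing the data.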
